A study of Mus musculus with 186 samples.

Results

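Neutrophil alarmin and granule transcripts were followed in lung and skin of mice injected under the skin with bleomycin. The set holds 10 of the 22095 genes in the deposited count table: S100a8, S100a9, Lcn2, Saa3, Ngp, Camp, Ltf, Retnlg, Stfa2l1 and Trem1. Each was taken by its Ensembl identifier through the GENCODE M21 gene names, and all 10 were found. No expression value was used to pick the rows, although the set itself was named with earlier results of these data in view.

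Female C57BL/6 mice of about 12 weeks received PBS or bleomycin at 10 mg/kg/day, 5 times a week for 2 weeks. On days 7 and 14 the groups were PBS or bleomycin with no oral dosing. On days 21 and 28 they were PBS with oral vehicle, bleomycin with oral vehicle, and bleomycin with SB525334, an inhibitor of the TGF-beta type I receptor kinase, given by mouth at 30 mpk BID from day 12. On day 42 only the PBS and bleomycin groups with vehicle were sampled, and the last oral doses fell on day 27. Comparisons of days 7 and 14 with later days also cross this change of dosing, so time and oral vehicle cannot be told apart in them. No group received PBS with SB525334, so an effect of the compound without bleomycin was not analysed here. The 186 libraries comprised 93 of lung, from the superior lobe, and 93 of skin, from punches of the back, in 24 groups of 7 to 9. The labels do not match mice between tissues and do not say that each library is a separate animal, so the p-values measure the spread between these libraries.

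Neutrophils fill their granules while they mature in the bone marrow, and Ngp, Camp and Ltf transcripts belong to that maturing stage. S100a8 and S100a9 make up a large part of the cytosolic protein of the mature cell, and Trem1, Retnlg and Stfa2l1 are also carried by mature neutrophils. Several of these genes are not private to neutrophils: Lcn2 and Ltf are made by airway epithelium, Saa3 by macrophages and stromal cells, and S100a8, S100a9 and stefin A genes by stressed keratinocytes. In bulk tissue, fewer cells of a type and less RNA per cell cannot be told apart.

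Values are CPM, the counts of a gene relative to the effective library size, given as the lowest, median and highest library of a group. Differences are log2 fold changes with their standard errors (SE) from edgeR's quasi-likelihood test, fitted on all 12 groups of a tissue with the plate as a term. A gene is called when its Benjamini-Hochberg adjusted p over all genes tested is below 0.05. The lung libraries held 4.79 M to 38.3 M total counts and the skin libraries 14.7 M to 43.1 M, so that 3 counts equal 0.0783 to 0.627 CPM in lung and 0.0697 to 0.204 CPM in skin. All 10 members passed the filter on low counts in lung. In skin 8 passed, and Ngp and Camp did not.

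Both tissues carried their defining transcripts: alveolar type 2 markers summed to 6350 CPM or more in each lung library, and basal and suprabasal epidermis markers to 3940 CPM or more in each skin library. Several libraries stood apart. Ribosomal protein genes took 4.82% to 13.5% of counts in 10 of the day 28 lungs, against 2.13% to 3.26% in the other 12 and 1.58% to 2.65% in the lungs of other days. A further 3 lungs stood apart through hair transcripts, 3 through the gene Gm10800, 1 through liver and 1 through muscle transcripts. Among the skins, 10 exceeded 900 CPM of hair shaft markers and 4 exceeded 100 CPM of alveolar type 2 markers. The lung library labelled bleomycin with vehicle, day 28, replicate 6 differed from PBS day 28 replicate 7 by a median chi-square of 0.506 per gene, close to the 0.455 that counting alone gives and below the 1.07 of the next closest pair among 4278. Its Eda2r, a p53 target, stood at 5.26 CPM, inside the PBS range of 4.72 to 9.97 CPM and below the 24.1 to 40.7 CPM of the other 6 libraries of its group. The day 28 lung comparisons that use it were therefore also fitted without it.

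Promoters are shown as a description of the members. RefSeq starts on GRCm38.p6 were used, with the 250 bases before each start. The C/EBP letters TTGCNNAA, searched on both strands, lay in 6 of the 10 members and in 9.55% of 27025 promoters of the same length. S100a8, Camp, Stfa2l1 and Trem1 held no C/EBP match. The PU.1 letters GAGGAAGT were found only in S100a8 among the members and in 2.44% of all promoters. The NF-kB motif was found in 0 members and in 3.75% of all promoters. These matches describe letters in a window, and their part in expression was not tested. The S100a9 window, chr3:90695722-90695971 on the minus strand, follows with its C/EBP match in capitals, and shorter windows around the other matches are given on their gene's strand.
S100a9: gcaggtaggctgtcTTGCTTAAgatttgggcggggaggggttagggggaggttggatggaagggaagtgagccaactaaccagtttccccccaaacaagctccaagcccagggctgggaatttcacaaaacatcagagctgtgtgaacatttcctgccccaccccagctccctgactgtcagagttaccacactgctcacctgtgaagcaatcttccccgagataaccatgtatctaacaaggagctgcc
Lcn2, chr2:32387938-32387965, minus strand: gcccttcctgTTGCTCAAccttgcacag
Saa3, chr7:46715758-46715785, minus strand: gtaagtgggaTTATGCAAgatcaaacag
Ngp, chr9:110419660-110419687, plus strand: tcctggtttaTTGCCCAAacctccttgc
Ltf, chr9:111019207-111019234, plus strand: ggcaggcctaTTGGGCAAtagggtgggg
Retnlg, chr16:48872358-48872379, plus strand: agctTTCTGCAAggcattccag
Ngp held a second match 11 to 4 bases before its start. The matches of Ngp and Ltf lay 138 to 131 and 75 to 68 bases before the start, and that of Retnlg 246 to 239 bases before it, near the far edge of the window.

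In skin the alarmins S100a8 and S100a9, whose proteins pair as calprotectin, reached the highest levels of all members after bleomycin. On day 7 S100a8 stood at 2.62, 13 and 173 CPM after bleomycin (n = 7) and at 0.172, 0.488 and 1.75 CPM after PBS (n = 8). On day 14 it stood at 28.1, 206 and 559 CPM after bleomycin and at 0.402, 0.83 and 4.47 CPM after PBS (n = 8 each). On both days every bleomycin skin lay above every PBS skin. The log2 fold change was 6.05 ± 0.99 (SE) on day 7 (adjusted p = 7.61e-07) and 6.86 ± 0.97 on day 14 (adjusted p = 5.13e-09), the latter a 116-fold difference. S100a9 followed: on day 14 it stood at 38.1, 278 and 749 CPM after bleomycin and at 0.236, 0.799 and 4.66 CPM after PBS, a log2 fold change of 7.20 ± 0.94 (adjusted p = 5.89e-10). Its groups were separate as well, and the lowest bleomycin skin was replicate 5 for both genes. The S100a9 difference on day 7 was 5.80 ± 0.93 (adjusted p = 5.44e-07).

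The alarmin difference narrowed after the injections ended. On day 21 S100a8 stood at 0.395, 8.89 and 144 CPM after bleomycin and at 0.181, 1.82 and 6.45 CPM after PBS. The groups overlapped, since replicates 1 and 6 of the bleomycin group were below the PBS median and replicate 4 alone exceeded 100 CPM. S100a8 was called (2.74 ± 0.84, adjusted p = 0.00622) and S100a9 too (4.71 ± 0.90, adjusted p = 1.95e-05). Without replicate 4 the S100a8 difference was 0.81 (adjusted p = 0.434) and that of S100a9 2.97 (adjusted p = 0.0037). Limma with quality weights ended both calls. Limma on the deposited log2 CPM and the edgeR fit of the 2 groups alone also ended that of S100a8. On plate 1 the S100a8 difference was -0.68 and on plate 2 it was 2.64, as mean log2 CPM. On day 28 S100a9 was 3.33 ± 0.93 higher (adjusted p = 0.00472), from 2.12, 7.18 and 38.5 CPM against 0.472, 1.02 and 2.36 CPM, and it was 2.53 higher without bleomycin replicate 5. Limma with quality weights ended this call. S100a8 on day 28 differed by 2.21 ± 0.90 (adjusted p = 0.0614) and was not called. It was called by DESeq2 (2.20, adjusted p = 0.0288), by limma on the deposited log2 CPM (2.30, adjusted p = 0.0445), with the replicate block (2.50, adjusted p = 0.0325) and in the edgeR fit of the 2 groups alone (2.38, adjusted p = 0.0326). It was also called without hair-rich skins (3.17) and on leaving out PBS replicate 2 (3.13) or bleomycin replicate 4 (2.39) or 7 (2.38). On day 42 the differences were 0.68 ± 0.82 for S100a8 and 0.76 ± 0.83 for S100a9, and neither was called. The fall from day 14 to day 42 was itself called for both, at -6.18 ± 1.21 (adjusted p = 2.05e-05) and -6.43 ± 1.2 (adjusted p = 8.62e-06).

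**Figure D1:**
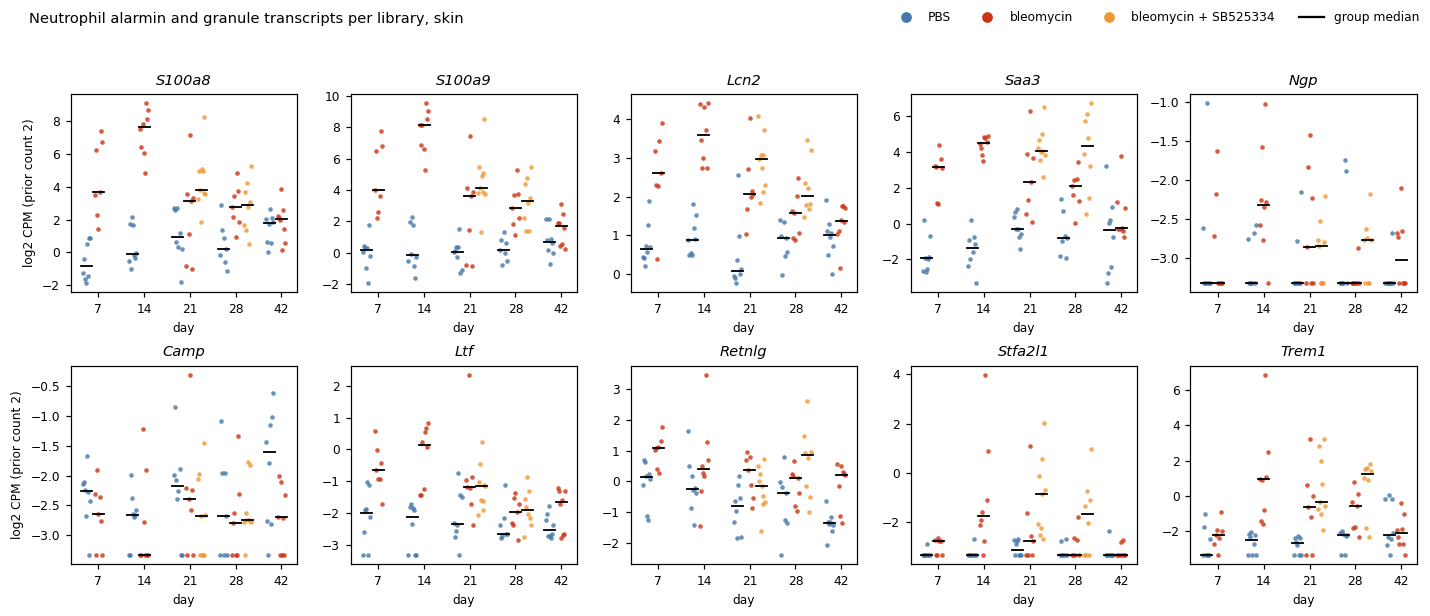
Log2 CPM (prior count 2) of the 10 members in each of the 93 skin libraries (points), by day and group, with group medians as bars. S100a8 in bleomycin skins on day 14 ran from 28.1 to 559 CPM and all lay above the PBS skins, while Ngp and Camp stayed near the bottom of the scale.

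Wound-type epidermis markers (such as Krt6a, Krt16 and Sprr1b) moved with the alarmins in skin. Their sum ran from 3430 to 19400 CPM in bleomycin skins on day 14 and from 797 to 1210 CPM in PBS skins. Among the day 21 bleomycin skins with vehicle, replicate 4 held 12700 CPM of these markers and 144 CPM of S100a8, and the other 6 held 972 to 1519 CPM of the markers. Summed mature neutrophil genes (such as Csf3r, Cxcr2 and Fpr2) also moved with them, at 327 to 1870 CPM against 143 to 280 CPM on day 14. The part of either in the alarmin result was not tested.

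**Figure D2:**
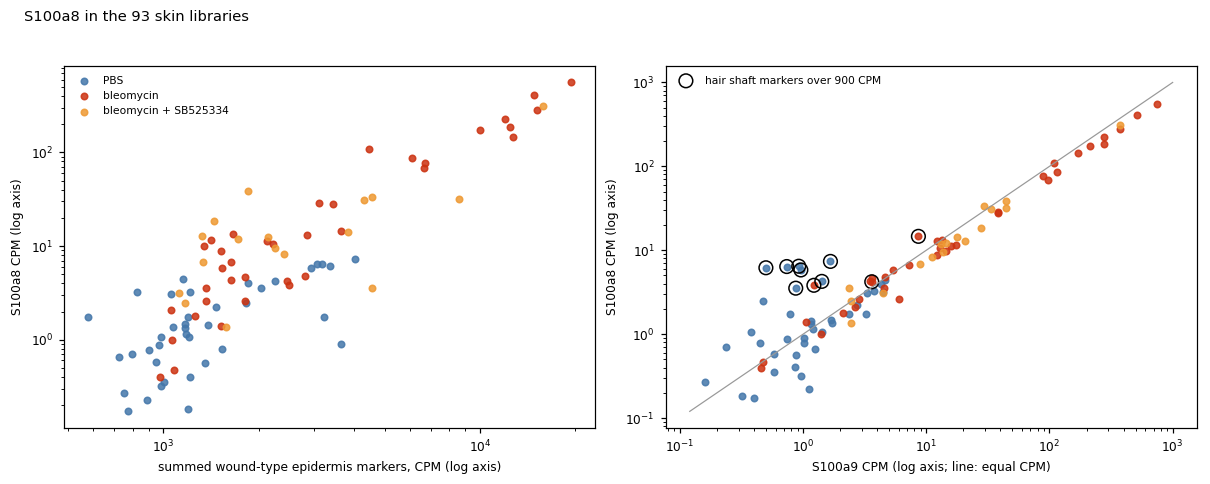
S100a8 CPM against the summed wound-type epidermis markers (left) and against S100a9 (right) in the 93 skin libraries, log axes, points coloured by treatment. Skins above 10000 CPM of wound-type markers held over 100 CPM of S100a8, and the 7 PBS skins rich in hair markers (circled on the right, with 3 bleomycin skins) lay above the line of equal CPM for S100a8 and S100a9.

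S100a8 and S100a9 kept a narrow proportion in bleomycin skins on day 14. Per kilobase of exon, the ratio of S100a8 to S100a9 had a median of 0.563 in bleomycin skins on day 14, with a range of 0.507 to 0.609. Its median was 0.576 in bleomycin lungs on day 42 (0.545 to 0.689). Day 28 lungs spread more widely, from 0.48 to 1.1 with vehicle, from 0.597 to 1.14 with SB525334 and from 0.456 to 0.953 after PBS. In the 7 hair-rich PBS skins the ratio ran from 2.26 to 9.33 with a median of 4.57, and in the other 32 PBS skins its median was 0.659. In those hair-rich skins S100a8 was present without a matching amount of S100a9. Since 3 of them were in the day 21 PBS group, S100a8 on day 21 was also fitted without hair-rich skins, where the difference was 4.26 and called, a setting chosen after seeing the data.

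Lcn2, a siderophore-binding protein that withholds iron from bacteria, rose in skin on days 7, 14 and 21. It stood at 6.49, 11.9 and 21.1 CPM after bleomycin on day 14 and at 1.31, 1.76 and 3.43 CPM after PBS. The day 14 groups did not overlap, and the log2 fold change was 2.75 ± 0.38 (adjusted p = 2.31e-09). On days 7 and 21 it was 2.07 ± 0.38 (adjusted p = 8.15e-06) and 1.84 ± 0.38 (adjusted p = 7.02e-05). By days 28 and 42 it was 0.73 ± 0.40 and 0.26 ± 0.37, and not called.

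Saa3, an acute-phase apolipoprotein made outside the liver, gave a larger change from a lower base. On day 14 it stood at 11.5, 22.8 and 30.1 CPM after bleomycin and at 0, 0.297 and 1.03 CPM after PBS. Bleomycin skins formed a narrow band well above the PBS skins, and the log2 fold change was 5.91 ± 0.90 (adjusted p = 4.73e-08). It was called on day 7 (5.04 ± 0.93), day 21 (4.14 ± 0.81) and day 28 (2.42 ± 0.85, adjusted p = 0.027). On day 21 it was 2.76 without bleomycin replicate 4, and on day 7 it was 5.65 without PBS replicate 2. Limma with quality weights called it on neither day 21 nor day 28. The day 28 call was lost on leaving out bleomycin replicate 6 or PBS replicate 1, 6 or 7 (adjusted p from 0.051 to 0.0775), and the difference was 3.06 without PBS replicate 2. The changes from day 14 to day 42 were called for Lcn2 (-2.49 ± 0.52, adjusted p = 5.74e-05) and Saa3 (-5.29 ± 1.15, adjusted p = 0.0001).

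The secondary granule genes were scarce in skin. Ngp, a neutrophil granule protein, had 0 counts in 29 of the 39 PBS skins and in 18 of the 37 bleomycin skins without SB525334. On day 14 the 8 bleomycin skins together held 20 Ngp counts and the 8 PBS skins 3, a ratio of 6.52 with an exact 95% interval of 1.93 to 34.3 that covers counting error only. Camp, the cathelicidin antimicrobial peptide, had a median of 0.054 CPM in bleomycin skins and 0.0941 CPM in PBS skins, both at or under 3 counts in most libraries. With no filter on low counts, Ngp was called on day 14 (2.40, adjusted p = 0.0205). Differences in Camp were not detectable at this depth.

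Ltf, the iron-binding lactoferrin of the same granules, was low but measurable. On day 14 it stood at 0.268, 1.01 and 1.69 CPM after bleomycin and at 0, 0.131 and 0.201 CPM after PBS, with no overlap and a log2 fold change of 3.10 ± 0.60 (adjusted p = 9.07e-06). It was called on day 7 (1.81 ± 0.60, adjusted p = 0.0102) and on day 21 (2.51 ± 0.59, adjusted p = 0.000455). The day 21 value fell to 0.94 (adjusted p = 0.18) without bleomycin replicate 3, the skin at 5.03 CPM, which also carried lung transcripts.

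Retnlg, a resistin-like protein secreted by myeloid cells, gave the smallest day 14 difference of the 8 members tested. It stood at 0.268, 1.21 and 10.9 CPM after bleomycin and at 0.28, 0.744 and 3.01 CPM after PBS. The groups overlapped, and the called difference of 1.26 ± 0.47 (adjusted p = 0.0163) became 0.25 (adjusted p = 0.628) without bleomycin replicate 6. On plate 1 the difference was -0.61 and on plate 2 it was 1.96. It was called on day 7 (1.11 ± 0.48, adjusted p = 0.0482), a call lost on leaving out bleomycin replicate 1, 2, 4, 6 or 7 or PBS replicate 1, 4, 5, 6, 7 or 8 (adjusted p from 0.0512 to 0.117). On day 21 its difference of 1.16 ± 0.50 (adjusted p = 0.0548) was called by DESeq2 (1.14, adjusted p = 0.0487), without bleomycin replicate 6 or 7 or PBS replicate 5 or 6, and without the skins that held lung transcripts. It was the member called on day 42, at 0.292, 1.07 and 1.39 CPM against 0.144, 0.291 and 0.544 CPM (1.59 ± 0.51, adjusted p = 0.0339), a call lost without bleomycin replicate 1, 4, 6, 7 or 8 or PBS replicate 4, 5, 7 or 8, and without hair-rich skins (1.65, adjusted p = 0.144).

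Stfa2l1, a stefin A-like inhibitor of cathepsins, was near 0 in PBS skins, with 0 counts in 30 of 39. On day 14 the bleomycin skins held 344 counts in all and the PBS skins 1, a ratio of 336 with an exact 95% interval of 60.0 to 13300. This interval pools libraries and covers counting error only, and 284 of the 344 counts came from 1 library. Replicate 6 alone reached 15.8 CPM, while the group's median was 0.199 CPM and its lowest library was at 0. The fitted difference of 7.11 ± 1.14 (adjusted p = 1.5e-07) was 5.05 without that library and 7.99 without PBS replicate 6. On day 21 the counts were 45 and 4, a ratio of 14.9 (5.43 to 57.0, counting error only), with 37 of the 45 in 1 library. The fitted 3.47 ± 1.07 (adjusted p = 0.00671) was 1.68 (adjusted p = 0.318) without bleomycin replicate 4. Both limma fits also ended that call. Of its transcript's stretches of 50 bases, 24.6% are shared with Stfa2 or Gm49652, so the split of counts among these genes is uncertain.

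Trem1, a surface receptor that amplifies inflammatory signalling in neutrophils and monocytes, stood at 0.231, 1.81 and 115 CPM after bleomycin on day 14 and at 0, 0.0783 and 0.141 CPM after PBS. Every bleomycin skin exceeded every PBS skin, and replicate 6 was far above the rest, as it was for Stfa2l1 and Retnlg. The log2 fold change was 7.52 ± 1.14 (adjusted p = 3.88e-08), and 4.60 (adjusted p = 3.52e-05) without that library. It was 4.67 ± 1.12 on day 21 (adjusted p = 0.000501), and 3.24 (adjusted p = 0.0228) without bleomycin replicate 4. The day 21 call was lost in limma with quality weights. On days 7, 28 and 42 Trem1 was not called by edgeR, and DESeq2 called it on day 28 (2.77, adjusted p = 0.0397).

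Counted over the 8 members tested in skin, 6 were called higher on day 7, 8 on day 14, 7 on day 21, 2 on day 28 and 1 on day 42, and 0 were called lower on any day. Stfa2l1, Trem1 and Ltf held 3 counts or fewer in 39, 34 and 30 of the 39 PBS skins. They passed the filter through the bleomycin skins, so these counts and the medians below depend in part on the filter. Of all genes tested in skin, 25.5%, 31.5%, 20.2%, 12.7% and 5.28% were called higher on the same days. Groups did not overlap for 3 members on day 7 and 6 on day 14, all higher after bleomycin, against 5.35% and 11.9% of all genes that were higher without overlap. The median log2 fold change of the members tested was 1.94 on day 7, 6.38 on day 14, 3.11 on day 21, 1.69 on day 28 and 0.65 on day 42. The bleomycin effect differed among the 5 days for S100a8, S100a9, Lcn2, Saa3 and Trem1, a pattern that 62% of all genes shared. From day 14 to day 42 the effect fell for those same 5 genes, and 27.9% of all genes fell. DESeq2, the replicate block and limma with quality weights also called this fall for Ltf (-2.46 to -2.15) and Stfa2l1 (-6.72 to -3.82). Among them was Trem1, at -8.32 ± 1.55 (adjusted p = 9.42e-06).

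**Figure D3:**
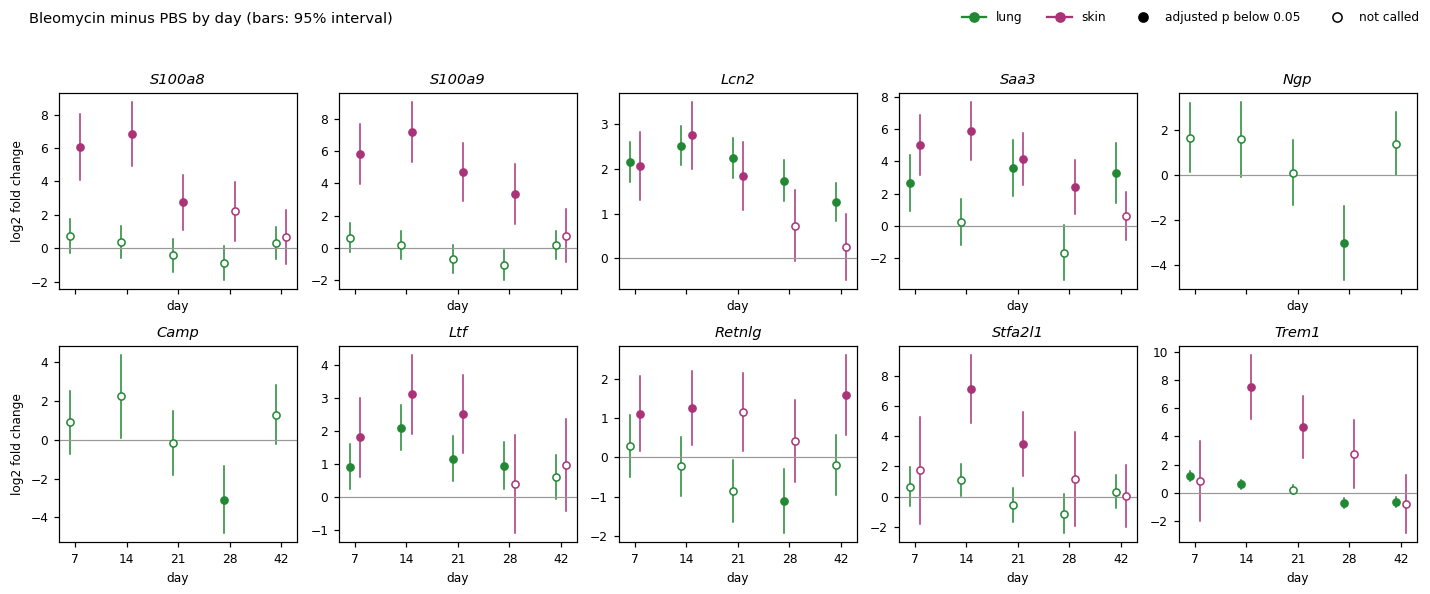
Log2 fold change of bleomycin against PBS for each member by day in lung (green) and skin (purple), with 95% intervals; filled points had an adjusted p below 0.05. Skin values of S100a8, S100a9 and Trem1 peaked on day 14 at 6.86, 7.20 and 7.52, lung values of Lcn2 stayed between 1.27 and 2.52, and lung Ngp and Camp were called lower on day 28 and on no other day.

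Other neutrophil genes, taken from lists by role, were counted beside the members. Of all genes tested in skin, 31.5% were called higher on day 14, the share to set beside the counts of genes that rose. The share called lower on that day is not given here, so counts of genes that fell cannot be set against it. On day 14 in skin 11 of 13 mature neutrophil surface and signalling genes rose and 1 fell, with a median log2 fold change of 3.50 beside 0.01 over all genes. They included Fpr2, a formyl peptide receptor (3.50 ± 0.40), Csf3r, the G-CSF receptor (2.61 ± 0.32), and Cxcr2, the chemokine receptor (3.97 ± 0.50). The decoy receptor Il1r2 fell by 1.37. Of the neutrophil attractants and growth factors, 9 of 10 rose (median 3.07), among them Cxcl2 (7.85 ± 0.98), Cxcl3 (7.01 ± 0.93) and Csf3, which encodes G-CSF (8.15 ± 1.19). Of the stefin A cluster and other cystatins 7 of 8 rose (median 6.43), led by Stfa3 (6.75 ± 0.72). Of the other specific and gelatinase granule genes 7 of 10 rose (median 1.22), including Mmp8, a neutrophil collagenase (4.11 ± 0.52), and Cd177 (3.02 ± 0.45). Of the receptors and adaptors for alarmins and TREM1, 8 of 13 rose and 1 fell, with Tlr2 at 1.75 ± 0.22 and Trem3 at 6.51 ± 0.98. The acute-phase and iron-sequestration genes were split, with 2 of 10 higher, including Saa1 (2.34 ± 0.66), and 5 lower, including transferrin, Trf (-1.25 ± 0.18). Of 4 azurophilic granule genes tested 0 were called.

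By day 42 in skin the same lists held few calls: 1 of the 13 mature neutrophil genes was higher and 1 lower, and 2 of the 10 attractants were higher, Cxcl1 (1.63 ± 0.44) and Cxcl5 (2.93 ± 0.90). Of all genes, 5.28% were called higher then, and the share called lower is not given here. Stefin genes were called in 0 of 8 on that day.

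In lung the response had another make-up. Lcn2 was raised on all 5 days, from a higher base than in skin. On day 14 it stood at 388, 451 and 600 CPM after bleomycin and at 57.8, 82.2 and 115 CPM after PBS (n = 8 each). Bleomycin and PBS lungs were fully separate on days 7, 14 and 21, and on day 42 they overlapped through bleomycin replicate 1, the lung with liver transcripts, at 66.3 CPM. The log2 fold change was 2.15 ± 0.22 on day 7, 2.24 ± 0.22 on day 21, 1.74 ± 0.23 on day 28 and 1.27 ± 0.21 on day 42 (adjusted p = 3.07e-06 on day 42). The effect on day 42 was lower than on day 14 by -1.25 ± 0.30 (adjusted p = 0.00194). Without the library labelled bleomycin, day 28, replicate 6, at 96.8 CPM, the day 28 value was 1.92. The day 28 call was lost in the edgeR fit of the 2 groups alone.

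Saa3 was low in most PBS lungs and higher in bleomycin lungs. On day 7 it stood at 4.56, 7.11 and 15.9 CPM against 0.973, 1.19 and 1.99 CPM (2.67 ± 0.88, adjusted p = 0.0148), a call lost without lungs of unusual composition. On day 42 it stood at 2.22, 6.37 and 10.9 CPM against 0.313, 0.791 and 0.967 CPM (3.30 ± 0.93, adjusted p = 0.00633). The groups were separate on both days, and on day 21. On day 14 the medians were 28.7 and 1.79 CPM, yet PBS replicate 3 stood at 166 CPM and replicate 6 at 15.3 CPM, and the difference of 0.27 ± 0.72 was not called. It was 2.92 (adjusted p = 0.000493) without PBS replicate 3, and limma called it with quality weights (3.43) and on the deposited log2 CPM (2.63). On day 28 PBS replicate 6 stood at 452 CPM, above every bleomycin lung, and the difference of -1.66 ± 0.85 (adjusted p = 0.113) turned to 2.18 (adjusted p = 0.0159) without it. With all lungs kept, the fit with no plate term called it lower (-2.05, adjusted p = 0.0408) and limma with quality weights called it higher (3.24, adjusted p = 0.00175). That PBS lung also held 1270 CPM of macrophage markers, against a group median of 423 CPM.

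Macrophage markers moved with Lcn2 and Saa3 in lung: their sum ran from 804 to 1200 CPM in bleomycin lungs on day 14 and from 395 to 710 CPM in PBS lungs. Their part in the result was not tested.

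Ltf rose in lung on days 7, 14, 21 and 28. On day 14 it stood at 53.7, 88.5 and 109 CPM after bleomycin and at 13.3, 20.5 and 28 CPM after PBS, with no overlap and a log2 fold change of 2.09 ± 0.34 (adjusted p = 4.81e-07). On day 21 it was 1.15 ± 0.34 (adjusted p = 0.00554). The day 7 value of 0.92 ± 0.34 (adjusted p = 0.0328) lost its call without bleomycin replicate 2 or 4 or PBS replicate 2, 4 or 6, and without lungs of unusual composition. The day 28 value of 0.95 ± 0.36 (adjusted p = 0.0281) lost its call without PBS replicate 3 or 4, and was 0.27 (adjusted p = 0.548) without bleomycin replicate 3, which stood at 344 CPM. The replicate block also ended that call (0.83), as did both limma fits and the fit of the 2 groups alone. Day 42 was not called by edgeR at 0.60 ± 0.33, but was by limma with quality weights (0.96, adjusted p = 0.00162) and without PBS replicate 6 (1.05, adjusted p = 0.0135), the lung at 124 CPM. From day 14 to day 42 the effect fell by 1.49 on the log2 scale (adjusted p = 0.0219).

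Ngp and Camp, the other secondary granule genes, were low in lung and varied widely within groups. On day 7 Ngp stood at 0.225, 2.47 and 11.5 CPM after bleomycin and at 0, 0.228 and 7.14 CPM after PBS. The ranges overlapped almost fully, and the difference of 1.65 ± 0.78 (adjusted p = 0.0943) was not called by edgeR, while limma called it with quality weights (2.03, adjusted p = 0.0214) and on the deposited log2 CPM (2.09, adjusted p = 0.0139). Without PBS replicate 8 it was 3.53 (adjusted p = 0.000525), and Camp was 2.39 (adjusted p = 0.0274).

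On day 28 both were called lower. Ngp stood at 0.429, 0.557 and 2.68 CPM after bleomycin and at 0.64, 1.16 and 37.8 CPM after PBS (-3.05 ± 0.83, adjusted p = 0.00293). Camp stood at 0.161, 0.298 and 3.09 CPM against 0.102, 0.482 and 29.1 CPM (-3.08 ± 0.86, adjusted p = 0.00396). The medians differed little, and the high values belonged to PBS replicates 2 (Camp 29.1 CPM, Ngp 17 CPM) and 6 (Ngp 37.8 CPM, Camp 9.91 CPM). Without replicate 6 Ngp was -1.59 (adjusted p = 0.119), and without replicate 2 Camp was -1.72 (adjusted p = 0.0897). Without bleomycin replicate 5 Camp was -4.00. With PBS replicates 2 and 6 both left out, a setting chosen after seeing the data, Ngp was -0.05 and Camp turned to 1.00. Without lungs of unusual composition Ngp was -2.49 and Camp -2.88, neither called. DESeq2 called Camp higher on day 14 (2.33, adjusted p = 0.0229). On day 42 Ngp differed by 1.39 ± 0.71 and Camp by 1.28 ± 0.76, not called by edgeR. Limma with quality weights called both (1.57, adjusted p = 0.00547, and 1.49, adjusted p = 0.00779), and edgeR called Ngp without PBS replicate 4 (2.02, adjusted p = 0.0491).

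Retnlg followed the same lungs. On day 28 it stood at 4.41, 15.8 and 29.8 CPM after bleomycin and at 10.8, 12.8 and 127 CPM after PBS, and was called lower (-1.11 ± 0.41, adjusted p = 0.0271). Without PBS replicate 2, at 127 CPM, it was -0.29 (adjusted p = 0.546), and the call was also lost without PBS replicate 6 or bleomycin replicate 2, 3 or 7. Retnlg was not called by edgeR on the other days. On day 21 it was called lower by limma with quality weights (-0.9, adjusted p = 0.00144), in the edgeR fit of the 2 groups alone (-0.83, adjusted p = 0.0015) and without lungs of unusual composition (-0.83, adjusted p = 0.014). Stfa2l1 was not called by edgeR on any day, and its values ran from 0 to 2.39 CPM in bleomycin lungs without SB525334. On day 14 Stfa2l1 was called by limma with quality weights (1.06, adjusted p = 0.0319), without PBS replicate 6 (1.44, adjusted p = 0.0336) and without lungs of unusual composition (1.43, adjusted p = 0.0251).

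S100a8 and S100a9 were abundant in PBS lungs and were not called by edgeR in the fit of all lungs on any day. S100a8 stood at 17.7, 20.5 and 42.7 CPM after bleomycin on day 14 and at 6.2, 11.8 and 64.6 CPM after PBS. The groups overlapped, with PBS replicate 6 the highest of all, and the difference of 0.35 ± 0.48 had a 95% interval from -0.60 to 1.31. Without lungs of unusual composition it was 0.96 and called (adjusted p = 0.0158), and limma with quality weights called it too (0.93, adjusted p = 0.00609). The edgeR fit of the 2 groups alone called S100a8 higher on day 7 (0.82, adjusted p = 0.0457) and lower on day 21 (-0.42, adjusted p = 0.0448). On day 21 that fit and limma with quality weights called S100a9 lower (-0.66 and -0.74). On day 42 the difference was 0.30 ± 0.48 for S100a8 and 0.19 ± 0.43 for S100a9. On day 28 the S100a8 difference of -0.88 ± 0.52 (adjusted p = 0.168) was -1.65 (adjusted p = 0.016) without bleomycin replicate 5, and 1.35 (adjusted p = 0.0184) without PBS replicates 2 and 6. Limma with quality weights called it higher (1.17, adjusted p = 0.0301), and without lungs of unusual composition it was called lower (-1.57, adjusted p = 0.0123), as was S100a9 (-1.59). S100a9 on day 28 differed by -1.06 ± 0.47 (adjusted p = 0.0638) and was called without PBS replicate 3, 4, 5 or 7 or bleomycin replicate 1 (-1.26 to -1.23) and without bleomycin replicate 5 (-1.67).

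Trem1 reversed between the early and the later sampling days in lung. On day 7 it stood at 5.66, 6.72 and 9.41 CPM after bleomycin and at 2.28, 3 and 3.83 CPM after PBS, with no overlap and a log2 fold change of 1.2 ± 0.17 (adjusted p = 4.46e-08). On day 14 it was 0.62 ± 0.16 higher (adjusted p = 0.00116), and on day 21 it was not called (0.20 ± 0.17). On day 28 it was lower, at 3.23, 4.02 and 5.12 CPM against 4.76, 6.04 and 13 CPM (-0.74 ± 0.18, adjusted p = 0.000848), a call lost in the limma fit with quality weights and in the fit of the 2 groups alone. On day 42 it was lower again, at 2.54, 3.55 and 4.24 CPM against 3.43, 5.63 and 7.69 CPM (-0.66 ± 0.16, adjusted p = 0.00167). All bleomycin lungs lay below the PBS mean on days 28 and 42. The change from day 14 to day 42 was -1.27 ± 0.23 (adjusted p = 5.12e-05), and the PBS median itself went from 3 CPM on day 7 to 5.63 CPM on day 42. Days 7 and 14 were without oral dosing, so time and oral vehicle cannot be told apart here.

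The day 28 comparison of bleomycin with PBS kept its 6 called members without the library labelled bleomycin, replicate 6. Ngp was then -2.88, Camp -2.91, Retnlg -1.14 and Trem1 -0.77, while Ltf was 1.02 and Lcn2 1.92. The members not called were S100a8 (-0.70, adjusted p = 0.284), S100a9 (-0.94, adjusted p = 0.109), Saa3 (-1.34, adjusted p = 0.2) and Stfa2l1 (-1.04, adjusted p = 0.208).

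Counted over the 10 members in lung, 4 were called higher on day 7, 3 on day 14, 3 on day 21, 2 on day 28 and 2 on day 42, where 14.3%, 21.2%, 16.3%, 19.7% and 11.8% of all genes were called higher. Members called lower numbered 4 on day 28 and 1 on day 42, against 18.5% and 7.38% of all genes. Groups were higher without overlap for 3, 2, 2 and 1 members on days 7, 14, 21 and 42, against 5.65%, 7.71%, 10.1% and 2.4% of all genes. The bleomycin effect differed among days for Lcn2, Saa3, Ngp, Camp and Trem1, and for 26.5% of all genes. For Saa3, Ngp and Camp this rested on PBS lungs with single high values. Without PBS day 14 replicate 3 and PBS day 28 replicates 2 and 6, a setting chosen after seeing the data, the adjusted p was 0.515 for Saa3, 0.382 for Ngp and 0.454 for Camp, while Lcn2 (adjusted p = 0.00279) and Trem1 (adjusted p = 1.45e-09) were called. Limma with quality weights also ended the calls of Saa3, Ngp and Camp, leaving out lungs of unusual composition those of Ngp and Camp, and the replicate block that of Saa3. Between day 14 and day 42 it fell for 3 members, Lcn2, Ltf and Trem1, and for 5% of all genes.

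The same wider lists were counted in lung. Of all genes, 21.2% were called higher on day 14, 18.5% lower on day 28 and 11.8% higher on day 42. The share called lower on day 14 is not given here, so counts of genes that fell then cannot be set against it. On day 14, 9 of 10 other specific and gelatinase granule genes rose (median 0.65, all genes -0.01), among them Cd177 (2.28 ± 0.19) and Anxa1 (1.22 ± 0.14). Of 15 mature neutrophil genes 3 rose, near the share of all genes, and 1 fell (median 0.00). Those that rose included Ncf1, a subunit of the NADPH oxidase (1.02 ± 0.13). Attractants were split, with 3 of 10 higher, including Il6 (1.92 ± 0.36), and 3 lower, including Cxcl3 (-1.40 ± 0.33) and Cxcl2 (-1.25 ± 0.30). On day 28, 7 of 15 mature neutrophil genes fell and 0 rose (median -0.65, all genes 0.01), among them Fpr2 (-1.48 ± 0.28), Fpr1 (-1.2 ± 0.24) and Cxcr2 (-1.07 ± 0.30). PBS replicates 2 and 6, which held the high values of Ngp and Camp on that day, were kept in these counts. Whether the falls in this list rest on the same PBS lungs was not tested. On day 42, 8 of 10 acute-phase genes were higher, led by Hpx, which encodes hemopexin (5.69 ± 0.71), in the group that held the library with 19800 CPM of liver markers.

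Skin and lung were compared in a joint fit, as the bleomycin effect averaged over the 5 days. The labels match no mice between tissues, so the fit treated all libraries as independent, and a pairing of lung and skin was not tested. The effect was larger in skin for S100a8 (3.67 ± 0.44, adjusted p = 1.59e-12), S100a9 (4.48 ± 0.43, adjusted p = 8.02e-18), Saa3 (1.96 ± 0.55, adjusted p = 0.00183) and Trem1 (2.84 ± 0.49, adjusted p = 2.91e-07). It was also larger for Retnlg (1.5 ± 0.29, adjusted p = 3.9e-06) and Stfa2l1 (2.59 ± 0.80, adjusted p = 0.00466). It was smaller in skin for Lcn2 (-0.48 ± 0.20, adjusted p = 0.034). The Saa3 difference was 0.69 (adjusted p = 0.197) without PBS lungs day 14 replicate 3 and day 28 replicates 2 and 6, and limma with quality weights ended the calls of Saa3 (0.51) and Stfa2l1 (1.13). Ngp, Camp and Ltf were not called by edgeR. Camp was called smaller in skin by limma with quality weights (-1.52, adjusted p = 0.0131) and by edgeR without those 3 PBS lungs (-1.56, adjusted p = 0.00996). In the fit of all libraries 6 members were thus higher and 1 lower, where 19.5% and 27.4% of all genes were.

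The order of levels per kilobase of exon differed between tissues. In bleomycin skins on day 14 S100a9 led with a median of 532 CPM per kb, followed by S100a8 at 297, and Saa3 came next at 8.77 CPM per kb. In PBS skins of that day S100a9, Retnlg and S100a8 stood at 1.53, 1.25 and 1.2 CPM per kb and overlapped. In bleomycin lungs Lcn2 led with 172 CPM per kb (148 to 229), above S100a9 at 44.1 (33.5 to 99.6), while in PBS lungs S100a9 at 32.7 and Lcn2 at 31.3 overlapped. Camp was the lowest in lung in both groups.

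SB525334 was compared with vehicle within the bleomycin groups. In lung on day 21, 0 of the 10 members were called by edgeR, 0 had an unadjusted p below 0.05, and 0.39% of all genes were called in either direction. The limma fit with quality weights and the edgeR fit of the 2 groups alone each called 2 members, S100a8 and S100a9. The shares of all genes called in those fits are not given here.

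On day 28, 4 members were higher in SB525334 lungs and 0 lower, where 2.65% of all genes were called higher. The limma fit with quality weights and the edgeR fit of the 2 groups alone each ended all 4 calls. S100a8 stood at 48.2, 146 and 644 CPM with SB525334 (n = 8) and at 9.67, 18.7 and 189 CPM with vehicle (n = 7), a log2 fold change of 1.78 ± 0.51 (adjusted p = 0.019). S100a9 stood at 60.7, 133 and 424 CPM against 13.1, 24.8 and 150 CPM (1.71 ± 0.46, adjusted p = 0.0127). Vehicle replicates 1 and 5 lay within the SB525334 range for both genes, and the other 5 vehicle lungs lay below every SB525334 lung. Retnlg stood at 13.7, 38.1 and 123 CPM against 4.41, 15.8 and 29.8 CPM (1.49 ± 0.40, adjusted p = 0.0124). Stfa2l1 stood at 0.848, 1.34 and 4.87 CPM against 0, 0.228 and 0.833 CPM, and was the member whose groups did not overlap (2.71 ± 0.61, adjusted p = 0.0027), where 0.0511% of all genes were higher without overlap.

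The share of ribosomal protein genes moved with these 4 transcripts. It was over 4% in 6 of the 8 SB525334 lungs and in 3 of the 7 vehicle lungs. S100a8 ran from 87.7 to 644 CPM in those 6 and from 46.9 to 189 CPM in those 3. In the lungs with a share up to 4%, it was 48.2 and 62.6 CPM with SB525334 and 9.67 to 18.7 CPM in the 4 with vehicle. Without the lungs of unusual composition, which left 2 SB525334 and 3 vehicle lungs, 0 members were called: S100a8 was 1.67 (adjusted p = 0.105), S100a9 1.67 (adjusted p = 0.125), Retnlg 0.89 (adjusted p = 0.387) and Stfa2l1 1.75 (adjusted p = 0.303). Without SB525334 replicate 4, S100a8 was 1.17 (adjusted p = 0.118), S100a9 1.32 (adjusted p = 0.0547) and Retnlg 1.08 (adjusted p = 0.067). Leaving out vehicle replicate 2 ended the same 3 calls (adjusted p from 0.054 to 0.0734), and vehicle replicate 3 that of S100a8 (adjusted p = 0.0611). Without vehicle replicate 5, S100a8 was 2.56 and S100a9 2.33. Without the library labelled vehicle replicate 6 the values were 1.62, 1.60, 1.53 and 2.63 for S100a8, S100a9, Retnlg and Stfa2l1, all called. Platelet markers were also higher, at 55 to 136 CPM against 21.6 to 93 CPM, and the part of blood content or of the ribosomal share in the result was not tested.

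**Figure D4:**
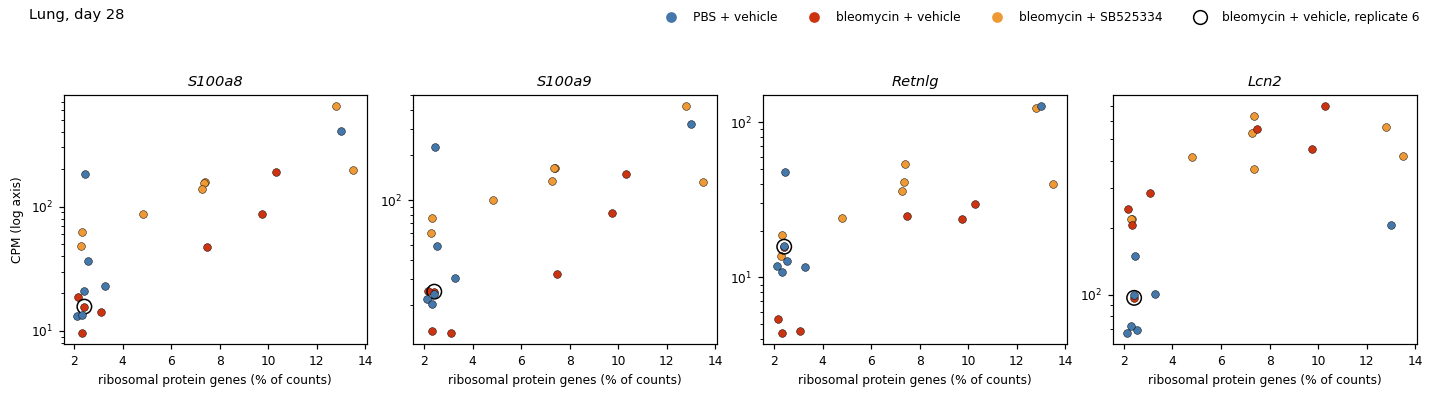
CPM (log axis) of S100a8, S100a9, Retnlg and Lcn2 against the percentage of counts in ribosomal protein genes for the 22 day 28 lungs, coloured by group, with bleomycin replicate 6 of the vehicle group circled. Lungs above 4% of ribosomal protein counts held 46.9 to 644 CPM of S100a8, and the remaining lungs 9.67 to 182 CPM.

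Lcn2 did not differ between SB525334 and vehicle lungs beyond its error (0.21 ± 0.22, adjusted p = 0.537), nor did Saa3, Ngp, Camp or Trem1, and Ltf differed by -0.98 ± 0.34 (adjusted p = 0.0587). Ltf was called lower by DESeq2 (adjusted p = 0.0388) and on leaving out SB525334 replicate 7 or 8 or vehicle replicate 1, 4, 5 or 7, at -1.25 to -0.99. Of 15 mature neutrophil genes 4 rose and 0 fell, among them Csf3r (0.91 ± 0.24) and Cxcr2 (0.93 ± 0.29). Of all genes, 2.65% were called higher in that comparison. The change of the SB525334 effect from day 21 to day 28 was called for 0 members by edgeR, with 0 at an unadjusted p below 0.05, and for 0.173% of all genes.

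In skin on day 21, 0 of 8 members were called by edgeR between SB525334 and vehicle, 1 had an unadjusted p below 0.05, and 11.8% of all genes were called. The limma fit with quality weights called 1, Stfa2l1. The member with an unadjusted p below 0.05 was Ltf (-1.19 ± 0.52), which was called without SB525334 replicate 5 (-1.52, adjusted p = 0.0498). Leaving out vehicle replicate 4, the skin with 144 CPM of S100a8, gave 4 called members: S100a8 (3.04), S100a9 (2.78), Saa3 (2.07) and Stfa2l1 (3.08). In that case the other 6 vehicle skins ran from 0.395 to 11.7 CPM of S100a8 and the SB525334 skins from 3.57 to 310 CPM. The shares of all genes called in the limma fit and in the fits with 1 library left out are not given here, so these counts cannot be set against them.

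On day 28 in skin 2 members were higher with SB525334, where 12.2% of all genes were. Saa3 stood at 1.35, 21.3 and 108 CPM with SB525334 and at 0.918, 4.16 and 10.8 CPM with vehicle. The ranges overlapped in the low SB525334 skins 3, 6 and 7, and the log2 fold change was 2.97 ± 0.76 (adjusted p = 0.0025). Stfa2l1 was called at 3.02 ± 1.05 (adjusted p = 0.0268). That call was lost without SB525334 replicate 4 or 8 or vehicle replicate 7, in DESeq2 and in limma on the deposited log2 CPM. S100a8 and S100a9 did not rise with Stfa2l1: they differed by 0.09 ± 0.79 and 0.25 ± 0.75. Of 13 mature neutrophil genes 7 rose and 0 fell (median 0.85, all genes 0.00), among them Fpr1 (2.01 ± 0.52), and the neutrophil attractant Cxcl5 rose (2.63 ± 0.71). Retnlg differed by 1.14 ± 0.48 (adjusted p = 0.0718) and was called without SB525334 replicate 6 or 7. Summed macrophage markers ran from 1690 to 2690 CPM with SB525334 and from 1310 to 1930 CPM with vehicle, and their part in the result was not tested. The change of the SB525334 effect from day 21 to day 28 in skin was called for 0 members by edgeR, with 2 at an unadjusted p below 0.05, and for 0.0569% of all genes.

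Within groups, members varied together from library to library. After group and plate means were subtracted from log2 CPM, Pearson's r and Spearman's rho were computed over the 93 libraries of a tissue. There were 45 pairs in lung and 28 in skin, with 100000 permutations each and adjustment over all 73. A pair passed when the adjusted p of r and that of rho were both below 0.05. In lung 26 pairs passed and in skin 20, all positive and all with the same sign on each plate and without the 2 most distant libraries. S100a8 and S100a9 had r = 0.97 and rho = 0.96 in lung and r = 0.87 and rho = 0.83 in skin. Each had p = 1e-05, the smallest these permutations can give (adjusted p = 2.92e-05 for r and 3.65e-05 for rho). In lung S100a8 also went with Retnlg (r = 0.88) and Ngp with Camp (r = 0.81), while S100a8 and Ngp were looser (r = 0.45). In skin Stfa2l1 went with Trem1 (r = 0.78) and S100a8 with Saa3 (r = 0.69). Ltf went with no other member in either tissue, with r from -0.20 to 0.17. Libraries share depth, plate and tissue content, so these are descriptions of co-variation.

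The genes outside the set whose values tracked a member most closely differed by tissue. For S100a8 in lung they were Lst1 (r = 0.84), Plac8, AB124611, Gm5150 and Cd52, and in skin Slpi, an epithelial and neutrophil protease inhibitor (r = 0.82), Hif1a, Tmprss11g, Fabp5 and Klk13. For Lcn2 in lung they were Ccl6 (r = 0.91), Fcgr3, Bex3, Ctsh and Cd68, and in skin Chil3 (r = 0.57), Acot5, Serpina3m, Cxcr2 and Serpina3n. For Saa3 in lung they were Timp1 (r = 0.87), C1qb, Cfp, C1qc and Adgre1, and in skin Cxcl5 (r = 0.69), Ada, Hif1a, Sptlc2 and Capza1. For Ngp in lung they were Prg2 (r = 0.71), Tlr6, Rgs18, Slfn14 and Slc2a3.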

How the data were processed

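Total RNA was depleted of ribosomal RNA and made into stranded libraries, per the labels' protocols. The authors deposited expected counts per Ensembl gene (RSEM, GRCm38, per the submitters' processing notes; 83.7% of values are whole) and log2 CPM of 16160 genes, with edgeR named in the same notes. Versions and the aligner are not given in the sources used here. Expected counts were rounded to whole numbers. Of 22095 identifiers, 21929 had a GENCODE M21 name.

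In R 4.3.3, edgeR 4.0.16 was used (filterByExpr, TMM factors, quasi-likelihood F test, 12 groups of a tissue plus plate, 15647 genes in lung, 15825 in skin, 16585 in the joint fit). Log2 CPM used a prior count of 2. SE is the log2 fold change divided by the square root of F. The test was tried on counts simulated for the day 7 comparison: in lung (15611 genes) it found 80 of 100 planted 2-fold and 67 of 100 planted 1.5-fold changes and made 7 false calls, and in skin (15736 genes) it found 84 and 65 and made 8.

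The median total count was 19.8 M in lung and 19.7 M in skin; intervals and floors cover counting error only. Within plates, 47 of 49 called differences between groups had the same sign on both plates. They were called on these same libraries, so this is a description and no separate check. Some plates held few libraries, in lung 1 and 1 on plate 1 on day 14 and 2 and 2 on plate 2 on day 28. Other settings were RLE factors, no filter, DESeq2 1.42.0, limma 3.58.1 (voom with quality weights, and trend on the deposited log2 CPM), no plate term, a replicate block, only the groups compared, and each library left out. A further 6 were chosen after seeing the data.

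The members and gene lists were chosen with earlier results of these data known. Named genes are all 10 members, up to 4 called genes per list and direction with the smallest p, and the 5 genes most like S100a8, Ngp, Lcn2 and Saa3. A gene of the mature neutrophil list is not reported here by name.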

Additional observations from a re-analysis of the deposited data

Results flagged for a closer look

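Extreme libraries were looked for in 216 groups of 4 to 10 values with Dixon's test at the 95% level, and 18 had one, where chance gives about 1 in 20 groups, or 11. Among PBS lungs these were S100a9 on day 14 (replicate 6, 84.5 CPM), Saa3 and Trem1 on day 28 (replicate 6, 452 and 13 CPM) and Ltf on day 42 (replicate 6, 124 CPM). Among bleomycin lungs they were Camp on day 28 (vehicle replicate 5, 3.09 CPM), and the low values of Lcn2 (replicate 1, 66.3 CPM) and Saa3 (replicate 6, 2.22 CPM) on day 42 and of S100a8 on day 21 with SB525334 (replicate 3, 16.3 CPM). In bleomycin skins S100a8 reached 310 CPM on day 21 with SB525334 (replicate 8), Ltf 5.03 CPM (replicate 3) and Stfa2l1 2.02 CPM (replicate 4) on day 21 with vehicle, and Saa3 13.9 CPM on day 42 (replicate 4), where Lcn2 was low in replicate 3 at 1.02 CPM. In PBS skins Lcn2 stood at 5.80 CPM on day 21 (replicate 5) and Ltf at 0.359 CPM on day 28 (replicate 5), and Stfa2l1 at 0.036, 0.0559 and 0.0944 CPM on days 7, 14 and 42, values of 1 or 2 counts.

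Effects that differed between days by a test of the difference itself were those of Lcn2, Ltf and Trem1 in lung from day 14 to day 42 (-1.25, -1.49 and -1.27) and of S100a8, S100a9, Lcn2, Saa3 and Trem1 in skin (-6.18, -6.43, -2.49, -5.29 and -8.32). Over all 5 days in lung the effect also differed for Saa3 (adjusted p = 0.00144), Ngp (adjusted p = 0.00331) and Camp (adjusted p = 0.00733). These 3 rested on PBS day 14 replicate 3 and PBS day 28 replicates 2 and 6, without which the adjusted p was 0.515, 0.382 and 0.454, and the replicate block also ended the Saa3 call. Effects that differed between skin and lung were those of S100a8 (3.67), S100a9 (4.48), Saa3 (1.96), Retnlg (1.5), Stfa2l1 (2.59), Trem1 (2.84) and Lcn2 (-0.48). That of Saa3 was 0.69 (adjusted p = 0.197) without the same 3 PBS lungs.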

How the results depend on the processing

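RLE factors, no filter on low counts, no plate term and the replicate block each kept all 21 counts of called members within 1.5 times; the block ended 3 of 74 member calls (Ltf on day 28 and Saa3 over the 5 days in lung, Retnlg on day 7 in skin) and added 3 (S100a8 on day 28 in skin, and Ltf and Stfa2l1 from day 14 to day 42 in skin). Replicate numbers did not pair the samples between the groups compared within a tissue: every pair exceeded a correlation of 0.1 in 0 of 14 comparisons. Mean correlations ran from -0.23 to 0.09, and 13 of 102 samples correlated best with their own number. Lung and skin libraries of the same number were not compared, so a pairing between tissues was not tested. DESeq2 called 4 members on day 28 in skin and 1 for SB525334 on day 28 in skin. The limma fit with quality weights called 6, 5, 3 and 6 in lung on days 14, 21, 28 and 42, 2 and 0 for SB525334 in lung on days 21 and 28, 2, 0 and 0 in skin on days 21, 28 and 42, and 1 for SB525334 in skin on day 21. The limma trend fit called 2 on day 28 in lung and 1 for SB525334 on day 28 in skin. Fits of only the groups compared called 6 and 0 in lung on days 21 and 28, 2 and 0 for SB525334 in lung, 4, 3 and 0 in skin on days 14, 21 and 42, and 1 for SB525334 in skin on day 28. Leaving out lungs of unusual composition, chosen after seeing the data, gave 2 on day 7, 5 on day 14 and 0 for SB525334 on day 28, and leaving out hair-rich skins gave 0 on day 42. Without PBS day 14 replicate 3 and PBS day 28 replicates 2 and 6, 2 members differed over the 5 days in lung. The cause was not tested. The share of all genes called in each of these fits is not given here, so the counts cannot be set against it. On day 28 in lung Camp turned to 0.67 and Retnlg to 0.31 in the limma fit with quality weights, and to 1.00 and 0.30 without PBS replicates 2 and 6.

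With each library left out in turn, members called ranged in lung from 3 to 6 on day 7, 3 to 4 on day 14, 3 to 3 on day 21, 4 to 8 on day 28, 3 to 4 on day 42, 0 to 0 for SB525334 on day 21 and 1 to 5 on day 28. In skin they ranged from 5 to 6, 7 to 8, 5 to 8, 1 to 3 and 0 to 1 on the 5 days, and from 0 to 4 and 1 to 3 for SB525334. Shares of all genes called in these refits are likewise not given. Depth limits Ngp, Camp and Stfa2l1 in skin, where most libraries held 3 counts or fewer.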
